A study of Homo sapiens with 12 samples.

Results

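The mitochondrial ribosomal protein genes are described here in OCI-AML3, an established human acute myeloid leukaemia line, treated for 24 h with solvent, with either of 2 drugs or with both. Members were chosen by name: gene symbols made of MRPL or MRPS and a number, with a mean raw count of 10 or more over the 12 libraries. Of 78 symbols with such a name, 77 reached that level, among 15173 genes tested and 54628 symbols in the table. They divide by symbol into 49 large subunit (MRPL) and 28 small subunit (MRPS) genes, and all 77 passed the filter on low counts. The rule itself uses the mean over all libraries, but this gene family was taken up with earlier results of these data known. Just inside the threshold lay MRPS28 with a mean raw count of 13.5, MRPS18B with 20.8 and MRPS18C with 34.3, and the next member, MRPS31, had 252. MRPS24 lay outside it with 0 counts in each of the 12 libraries.

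The 4 groups of 3 libraries were DMSO, the solvent control, ABT199 (venetoclax, which blocks the survival protein BCL2), ERKi (an inhibitor of the kinases ERK1 and ERK2, compound 27 in the labels) and Comb, the combination of ABT199 and ERKi. All groups are the same cell line, with no genetic change between them, and the sources used here give no drug doses. The study's title asks how blocking ERK1/2 overcomes resistance to venetoclax, with mitochondrial fission as its subject. RNA levels of ribosomal protein genes measure neither fission nor the making of proteins in mitochondria. Whether replicates are separate cultures is not stated in the labels, and the spread behind the p-values is that between these libraries, which may be only technical.

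Mitochondria keep their own ribosome, the mitoribosome, which makes the few respiratory chain proteins that the mitochondrial genome encodes. Its RNAs come from mitochondrial DNA, but every one of its proteins is encoded in the nucleus, made in the cytosol and imported. A part of these proteins descends from bacterial ribosomal proteins, and the rest exist only in mitochondria. The large subunit joins amino acids and holds the tunnel through which the new chain leaves, and the small subunit binds and decodes the mRNA. Some acute myeloid leukaemias are known to be sensitive to block of mitochondrial translation.

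The libraries held 19199296 to 21275065 counts. Values are in CPM, the deposited counts per 1e+06 counts of the library after TMM scaling, so that rises and falls are relative to the bulk of all genes. Summed over 7 myeloid leukaemia markers the level was 2616 to 2849 CPM in every library, while MPO among them was low, with a mean raw count of 37.9. The largest parts of the sum were NPM1, with raw counts of 22068 to 40455 over the libraries, and PTPRC, with 9321 to 21199. CSF3R ran from 1222 to 4755 and CD33 from 1128 to 1665, so the sum does not show that each marker was steady. Markers of T cells and erythroid cells summed to at most 0.101 CPM, those of B cells to at most 1.52 CPM and those of epithelial cells to at most 1.25 CPM. The 5 stromal collagen and matrix genes summed to 6.04 to 33.9 CPM with DMSO, 12.3 to 23.6 CPM with venetoclax and 9.33 to 24.0 CPM with ERKi, against 1.15 to 1.57 CPM with the combination, and the part of this in the results was not tested. DMSO replicate 1 was unlike its 2 partners: over the members' counts, chi-square divided by its degrees of freedom was 6.97 and 6.09 for its pairs and 1.51 to 2.94 for every other replicate pair, so counts against DMSO are also given without it. In bulk RNA, fewer cells of a type and less RNA per cell cannot be told apart.

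In untreated leukaemia cells nearly all members were well expressed, but at very different levels. Per kilobase of exon, using GENCODE 29 exon lengths, the median member had 16.2 CPM in DMSO, with 18.5 for the large and 11.7 for the small subunit. MRPL15, a large subunit protein with a bacterial counterpart, was highest at 92.1 ± 1.22 CPM per kilobase (SD, n = 3). MRPL12 followed at 86.9 ± 11.7 CPM per kilobase. It forms the flexible stalk that brings translation factors to the ribosome. Their spreads overlap, so the order of these neighbours is not settled. At the other end stood MRPS18C at 0.260 ± 0.0566, MRPS28 at 0.288 ± 0.0678 and MRPS18B at 0.548 ± 0.246 CPM per kilobase, and the next member up, MRPL46, was at 3.69 ± 0.288. MRPS24 and the readthrough gene URGCP-MRPS24, which spans it, both had 0 counts. MRPS28 shares 35.8% of its exon bases with another annotated gene on the same strand. Whether the low or absent counts of MRPS18B, MRPS18C, MRPS28 and MRPS24 come from the way reads were counted was not tested. The member genes are spread over 21 chromosomes of the GRCh38 RefSeq annotation.

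A short ETS-type motif and a YY1-type motif were in a larger share of the members' start regions than of those of all tested genes, and a few are shown because ETS factors are among the known targets of ERK. RefSeq windows of 300 bases, from 250 before to 50 after a start site in GRCh38.p14, were matched for 68 members. The letters CCGGAAG, searched on both strands, were in the window of 30 of these 68 (44.1%), against 22% of 11022 tested genes with a window and 12.2% of all 27305 genes with one. Below are 4 stretches of 90 bases that end just before a RefSeq start site, 5′ to 3′ on the gene's strand, with the motif in capitals. MRPL3, MRPL47 and MRPL40 were lower with ERKi and MRPL33 was higher.
MRPL3 (chr3:131502972-131503061, minus strand): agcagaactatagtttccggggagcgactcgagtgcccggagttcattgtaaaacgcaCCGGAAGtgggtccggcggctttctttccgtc
MRPL47 (chr3:179604639-179604728, minus strand): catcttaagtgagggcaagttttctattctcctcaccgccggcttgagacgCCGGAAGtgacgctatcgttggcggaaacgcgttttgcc
MRPL40 (chr22:19432455-19432544, plus strand): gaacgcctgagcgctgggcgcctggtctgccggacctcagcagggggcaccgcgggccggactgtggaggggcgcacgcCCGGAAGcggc
MRPL33 (chr2:27771629-27771718, plus strand): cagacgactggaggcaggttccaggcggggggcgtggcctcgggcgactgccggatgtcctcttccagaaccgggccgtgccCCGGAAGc

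The YY1-type letters AAGATGGC, on both strands, were in the window of 20 of the 68 members (29.4%), against 6.25% of the tested genes with a window. They lay mostly just after the start, with 15 of 23 matches there, whereas 39 of 45 ETS-type matches lay before it. The 4 stretches of 30 bases below show the same letters, in capitals, at the start of members from both subunits.
MRPS7 (chr17:75261887-75261916, plus strand): cgtggccagccAAGATGGCtgcccccgcag
MRPL42 (chr12:93467511-93467540, plus strand): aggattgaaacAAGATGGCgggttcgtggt
MRPL46 (chr15:88467362-88467391, minus strand): tgggagaacgaAAGATGGCggcgcccgtaa
MRPS27 (chr5:72320206-72320235, minus strand): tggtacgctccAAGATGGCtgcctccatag

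Other motifs were near the level of the tested genes or below it. The NRF1 motif was in 13.2% of the member windows against 12.9%, the E-box CACGTG in 13.2% against 12.5%, the GC box GGGCGG in 60.3% against 74.6% and the CRE TGACGTCA in 1.47% against 3.67%. Members with and without the ETS-type letters had median log2 fold changes with ERKi of -0.65 and -0.69, and those with and without the YY1-type letters -0.68 and -0.61. A match of letters is not a measured binding site.

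Venetoclax alone left the members near their DMSO levels. Their summed level was 3844 to 4219 CPM in the DMSO libraries and 4036 to 4149 CPM with venetoclax, and the groups overlap. No member of 77 was called at an adjusted p under 0.05 by edgeR's quasi-likelihood test with Benjamini-Hochberg adjustment, and DESeq2 also called 0. In this comparison 0.402% of all tested genes were called in either direction. At an unadjusted p under 0.05 there were 9 of 77 members, a share near that of all tested genes (1382 of 15173), and the median log2 fold change of the 77 was 0.05. MRPL12 went from 103, 84.5 and 80.4 CPM in the DMSO libraries to 88.4, 92.0 and 90.2 CPM, with overlapping groups.

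With ERKi alone most mitoribosomal protein genes fell. The summed level dropped from 3975 ± 212 CPM with DMSO to 2556 ± 39.5 CPM (SD, n = 3 each), and the ERKi libraries at 2531 to 2602 CPM all lay below the DMSO libraries. Of 77 members, 66 fell and 2 rose, where 35.2% of all tested genes were called lower and 34.5% higher. The median log2 fold change was -0.67 for the members and 0.01 for all genes tested. A fall of 1.5-fold or more was called for 45 members, a size of fall called for 20.3% of all tested genes. In 65 members every ERKi library lay below every DMSO library, which was so for 35.6% of all tested genes. Without DMSO replicate 1, 65 members fell and 2 rose. MRPS18C, called higher with all libraries, was then no longer called (edgeR adjusted p = 0.0511), so these 2 were not the same pair.

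**Figure D1:**
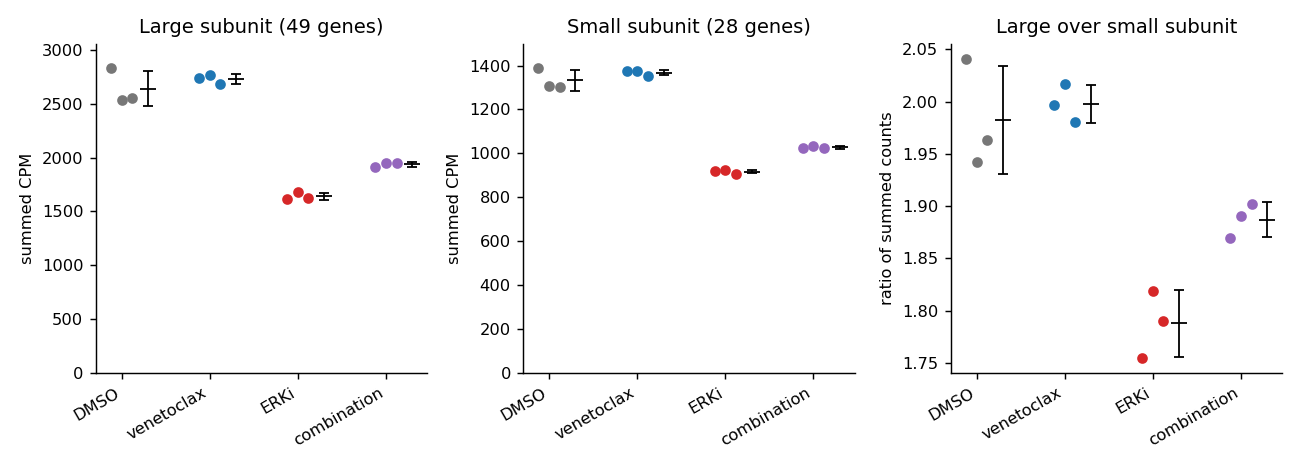
Summed CPM of the 49 large and 28 small subunit members (left and middle, axes from 0) and the ratio of their summed counts (right, axis not from 0) in each of the 3 libraries per group; the black bars are mean and SD. ERKi libraries are lowest in all 3 panels, with ratios of 1.75 to 1.82 against 1.94 to 2.04 for DMSO, and the combination lies between.

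The 10 largest falls were all of large subunit genes. MRPL23, a protein at the exit of the peptide tunnel (chromosome 11, 1947332 to 2014944, plus strand, GRCh38), had 22.8, 23.6 and 20.1 CPM with DMSO and 8.72, 9.28 and 7.96 CPM with ERKi. The groups do not overlap. It fell by 1.36 on the log2 scale (SE 0.18, edgeR adjusted p = 3.21e-06), to 0.391 of its DMSO level. MRPL17, a neighbour of the same exit (chromosome 11, 6680385 to 6683340, minus strand), had 54.9, 48.4 and 48.3 CPM with DMSO and 19.4, 20.7 and 19.3 CPM with ERKi. It fell by 1.35 (SE 0.06, edgeR adjusted p = 8.52e-12), to 0.392 of its DMSO level.

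MRPL12, the stalk protein, also known to bind the mitochondrial RNA polymerase (chromosome 17, 81703367 to 81707517, plus strand), had 103, 84.5 and 80.4 CPM with DMSO and 32.9, 37.7 and 36.3 CPM with ERKi. DMSO replicate 1 was its highest library, and all ERKi libraries lay far below all DMSO libraries. It fell by 1.32 (SE 0.08, edgeR adjusted p = 1.86e-10), to 0.399 of its DMSO level. Reads of MRPL12 may be shared with an annotated readthrough gene that covers 68.2% of its exon bases in GENCODE 29. MRPL3, which sits near the site where peptide bonds form (chromosome 3, 131462212 to 131502971, minus strand), had 187, 167 and 171 CPM with DMSO and 78.6, 84.5 and 79.1 CPM with ERKi. It fell by 1.11 (SE 0.05, edgeR adjusted p = 6.67e-12).

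MRPL12 and its neighbours differed. MRPL11, at the base of the stalk, had 39.2, 35.1 and 34.0 CPM with DMSO and 21.6, 21.5 and 22.4 CPM with ERKi, a fall of 0.73 (SE 0.06). MRPL10, which anchors the stalk, had 51.5, 40.7 and 42.1 CPM with DMSO and 33.6, 35.9 and 33.3 CPM with ERKi, a fall of 0.39 (SE 0.08, edgeR adjusted p = 0.000346). The groups do not overlap for either gene. The 3 proteins of this region thus had falls that differed by more than their standard errors, though this difference between genes has no test of its own.

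The next large subunit falls were of similar size to each other. MRPL24, an early-binding protein of the tunnel region, MRPL1, of the stalk that releases used tRNA, and MRPL14, at the face that joins the small subunit, each fell by 1.03 on the log2 scale. MRPL4, which lines the tunnel, MRPL13 and MRPL47, near the tunnel exit, each fell by 1.02. Their standard errors were 0.05 to 0.10, so no order among these 6 genes can be read. MRPL22, another protein of the tunnel, had 37.6, 31.0 and 32.5 CPM with DMSO and 20.5, 22.3 and 20.9 CPM with ERKi and fell by 0.67 (SE 0.07). MRPL45, which links the tunnel exit to the inner membrane, had 33.4, 25.7 and 30.02 CPM with DMSO and 31.6, 24.3 and 26.5 CPM with ERKi. These groups overlap, and it was not called (log2 fold change -0.11, SE 0.11, edgeR adjusted p = 0.39).

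**Figure D2:**
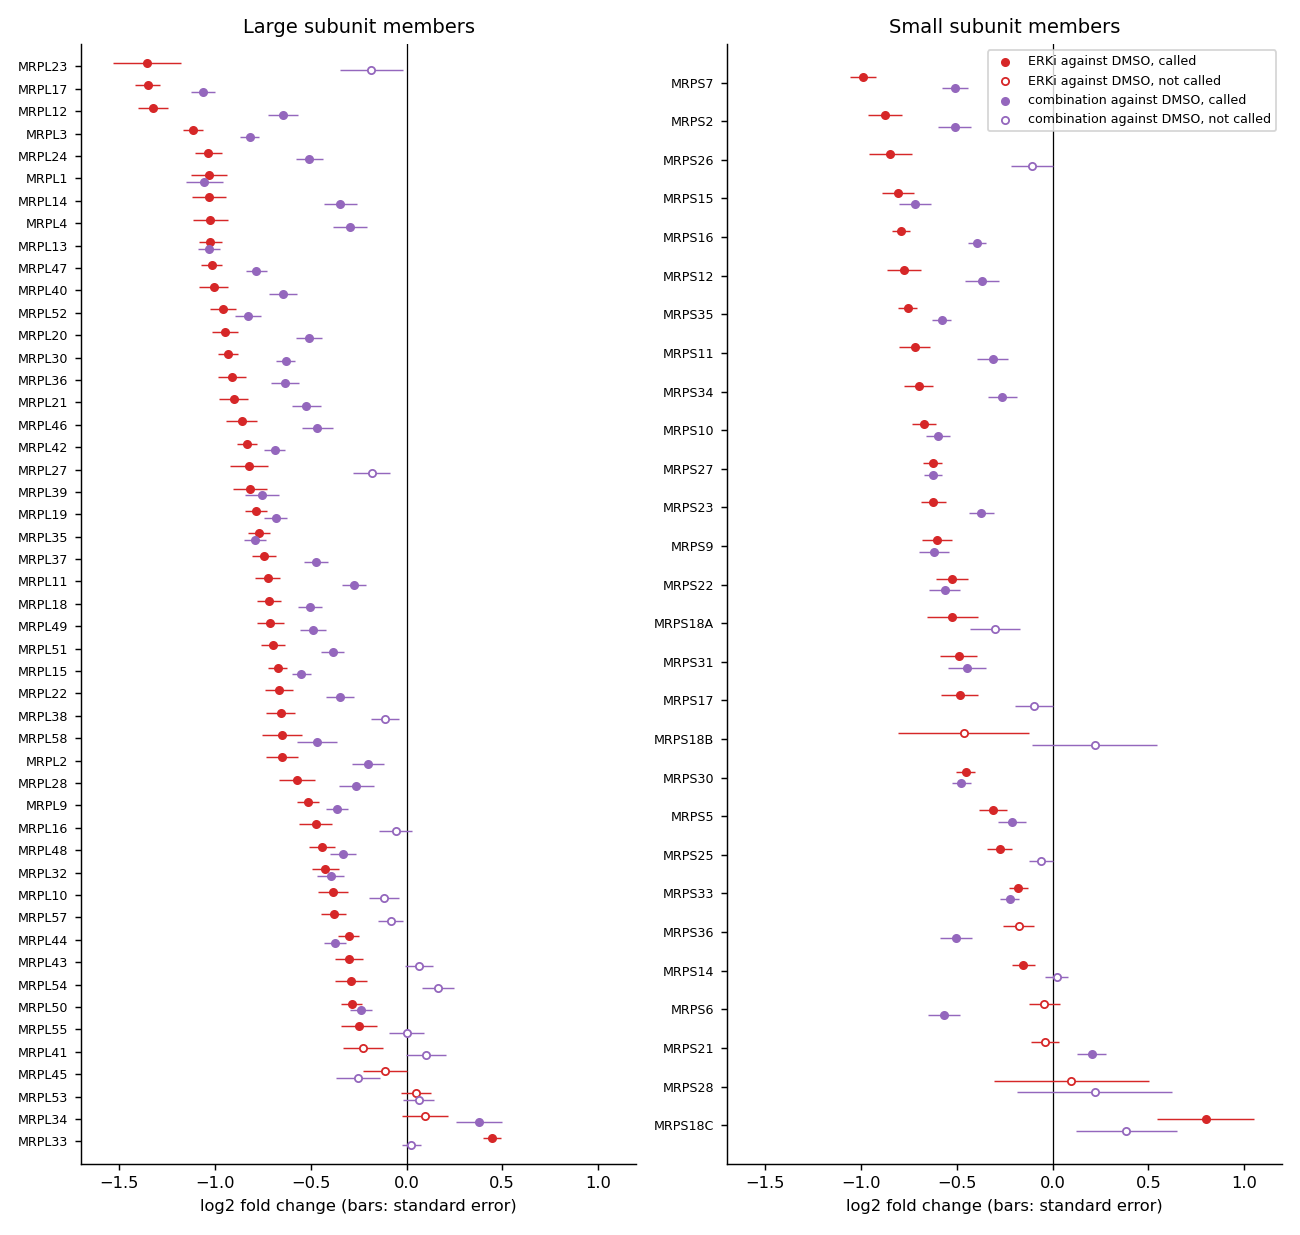
Log2 fold change of each of the 77 members with ERKi (red) and with the combination (purple) against DMSO, with standard errors; filled points passed the edgeR threshold. Most red points lie left of 0, and for most members the purple point lies nearer to 0 than the red one.

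Members of bacterial descent in the large subunit had the lowest median. Of 30 such genes 28 fell, with a median log2 fold change of -0.80. Of 21 large subunit genes by place in the ribosome that were classed as mitochondria-specific 18 fell, with a median of -0.52. In the small subunit 11 of 15 genes of bacterial descent fell (median -0.60) and 9 of 10 mitochondria-specific ones (median -0.57). These classes were assigned from textbook knowledge, and their differences are a description. MRPS18A (large subunit by place) and MRPS18B (small) were counted as mitochondria-specific, although both are homologues of bacterial S18. The counts and medians were not computed with these genes moved. Higher DMSO level per kilobase went with a lower log2 fold change across the 77 genes (Pearson's r = -0.42, Spearman's rho = -0.31), while exon length did not (0.01 and -0.01). The same DMSO libraries enter both the level and the fold change, so part of a negative correlation is built in. The members of very low counts were kept in, and no conclusion is drawn from these values. The 77 genes share the same libraries and are not independent replicates.

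In the small subunit the falls were smaller than the largest ones of the large subunit. MRPS7, a protein of the head near the place where mRNA leaves (chromosome 17, 75261879 to 75266376, plus strand), had 95.6, 78.6 and 83.5 CPM with DMSO and 41.3, 43.4 and 45.0 CPM with ERKi. The groups do not overlap, and it fell by 0.99 (SE 0.07, edgeR adjusted p = 1.04e-09). MRPS26, a mitochondria-specific protein, had 28.4, 21.0 and 20.2 CPM with DMSO and 12.8, 12.7 and 13.1 CPM with ERKi, a fall of 0.85 (SE 0.11, edgeR adjusted p = 3.48e-06). MRPS12, a protein of the decoding centre, had 35.0, 29.1 and 28.98 CPM with DMSO and 16.7, 19.6 and 18.1 CPM with ERKi, and it fell by 0.77 (SE 0.09, edgeR adjusted p = 6.55e-07). MRPS15, which binds the ribosomal RNA early in assembly, fell by 0.81, and MRPS2 fell by 0.87. MRPS27 went from 182, 176 and 171 CPM with DMSO to 119, 116 and 107 CPM with ERKi, a fall of 0.63 (SE 0.05), and MRPS35 from 117, 118 and 122 CPM to 70.1, 73.5 and 67.7 CPM, a fall of 0.76 (SE 0.05). MRPL15, the highest member per kilobase, went from 111, 109 and 109 CPM to 66.1, 71.5 and 68.7 CPM, a fall of 0.67 (SE 0.05). In each of these genes the ERKi libraries lay below the DMSO libraries.

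Both subunits were therefore lower with ERKi, the large one by more. Of the large subunit 44 of 49 genes fell and 1 rose (median -0.72), 32 of them by 1.5-fold or more. Of the small subunit 22 of 28 fell and 1 rose (median -0.52), 13 of them by 1.5-fold or more. The ratio of summed large to summed small subunit counts was 2.04, 1.94 and 1.96 in the DMSO libraries and 1.75, 1.82 and 1.79 in the ERKi libraries. All 3 ERKi ratios lie below all DMSO ratios, also without DMSO replicate 1. The mean log2 fold change of the large subunit genes was lower than that of the small subunit genes by a difference of -0.21, and of -0.14 when the 3 members with under 100 mean counts, all of the small subunit, were left out. No p is given for these scores over chosen members.

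Symbols and places in the ribosome do not match for a few genes. MRPS30 and MRPS18A carry small subunit names but sit in the large subunit, and both fell: MRPS30 by 0.45 (SE 0.05, edgeR adjusted p = 3.85e-07) and MRPS18A by 0.52 (SE 0.13, edgeR adjusted p = 0.00206). MRPS36 is now known as a subunit of the alpha-ketoglutarate dehydrogenase complex. It was not called with ERKi, at a log2 fold change of -0.18 (SE 0.08, edgeR adjusted p = 0.0616), but passed without DMSO replicate 1 (0.0144), venetoclax replicate 2 (0.0448) or ERKi replicate 2 (0.0498). By place in the ribosome, 46 of 51 large and 20 of 25 small subunit genes fell, with medians of -0.71 and -0.60. MRPL58, a rescue enzyme for stalled ribosomes that became a fixed part of the large subunit, fell by 0.65 (SE 0.10, edgeR adjusted p = 2.9e-05).

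The 3 homologues of bacterial S18 differed in their counts and in their calls. MRPS18A had 16.5, 15.1 and 11.4 CPM with DMSO and 9.95, 9.65 and 10.3 CPM with ERKi. MRPS18B had raw counts of 31, 22 and 12 with DMSO and 17, 13 and 18 with ERKi, and was not called (log2 fold change -0.46, SE 0.34) except when DMSO replicate 3 was left out (edgeR adjusted p = 0.0478). MRPS18C had raw counts of 20, 32 and 28 with DMSO and 48, 36 and 58 with ERKi, and was called higher (log2 fold change 0.80, SE 0.25, edgeR adjusted p = 0.0101). That call rested on few reads: it was lost without DMSO replicate 1 (adjusted p = 0.0511) and without ERKi replicate 3 (0.0587). MRPS18C shares 40.2% of its exon bases with ABRAXAS1 on the opposite strand, whose log2 fold change was 0.56. Because the strand setting of the counting is not given, reads of these overlapping genes cannot be told apart. The same limit holds for members that fell, since 29 members share exon bases with a gene on the opposite strand. MRPL47 shares 9.05% with ACTL6A (log2 fold change with ERKi -1.15) and MRPS12 16.3% with SARS2 (-0.88). Other partners rose, such as KLC4, which shares 14.7% of the exon bases of MRPL2 (0.90).

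MRPL33 was the other member that rose with ERKi. This small protein of the large subunit (chromosome 2, 27771719 to 27779733, plus strand) had 75.1, 77.05 and 81.0 CPM with DMSO, 82.9, 80.9 and 83.4 CPM with venetoclax, 102, 108 and 108 CPM with ERKi and 77.3, 80.4 and 79.6 CPM with the combination. The ERKi libraries stood above all others. Its log2 fold change with ERKi was 0.45 (SE 0.05, edgeR adjusted p = 2.89e-07), and with the combination it was 0.03 and not called. It shares 21.1% of its exon bases with BABAM2 on the same strand, whose log2 fold change with ERKi was 0.26. The members not called with ERKi were MRPL34, MRPL41, MRPL45, MRPL53, MRPS6, MRPS18B, MRPS21, MRPS28 and MRPS36.

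**Figure D3:**
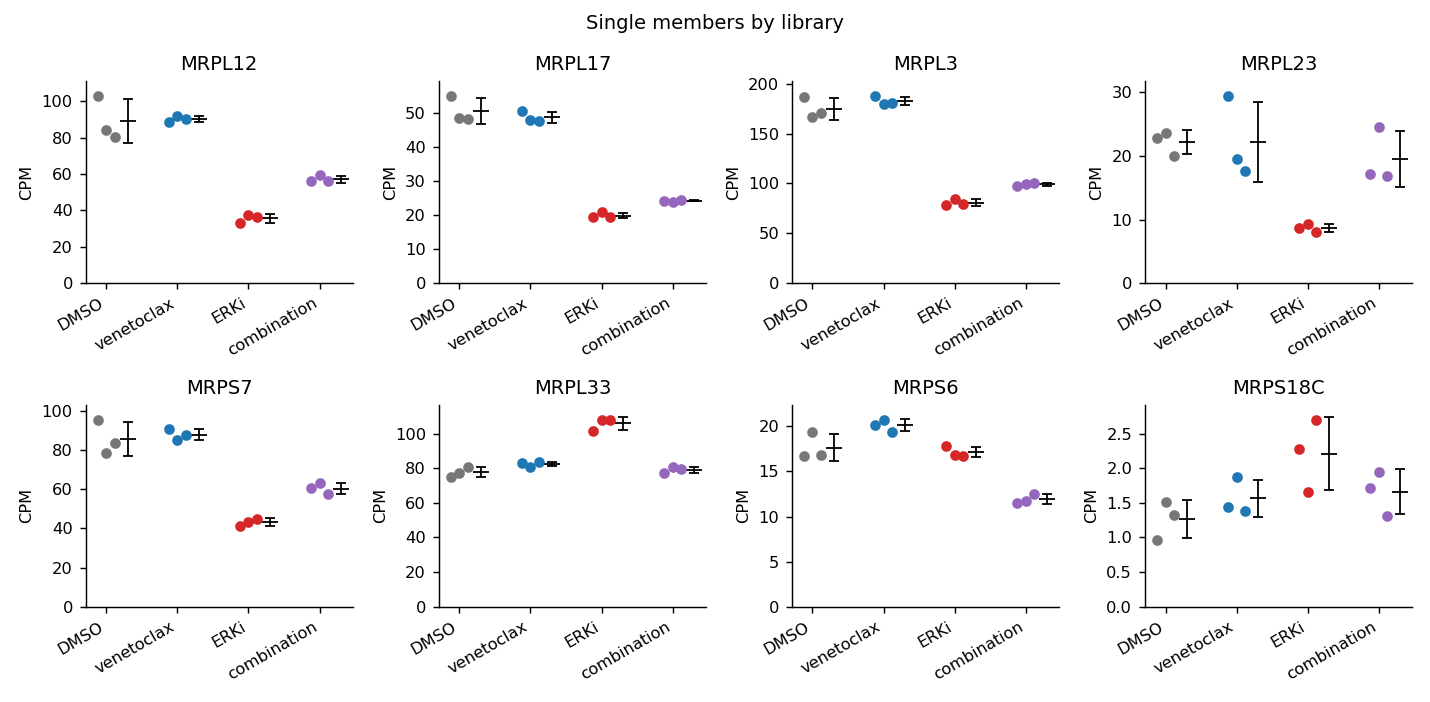
CPM of 8 members in each library by group (axes from 0), with mean and SD as black bars. MRPL12, MRPL17, MRPL3, MRPL23 and MRPS7 are lowest with ERKi, MRPL33 is highest with ERKi, MRPS6 is lowest with the combination, and MRPS18C varies among few reads.

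With the combination most members were still below DMSO, by less than with ERKi alone in the summed level. The summed level was 2965 ± 28.2 CPM (SD, n = 3), between the DMSO and the ERKi libraries with no overlap. Of 77 members 54 fell and 2 rose against DMSO, where 33.4% of all tested genes were called lower and 30.4% higher. Without DMSO replicate 1, 52 fell and 2 rose. The median log2 fold change was -0.37, and 18 members fell by 1.5-fold or more, against 15.6% of all tested genes. By subunit 35 of 49 large and 19 of 28 small subunit genes fell, with medians of -0.39 and -0.37. The ratio of large to small subunit counts was 1.87, 1.89 and 1.90.

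MRPL17, MRPL1 and MRPL13 fell most with the combination. MRPL17 had 24.2, 23.9 and 24.5 CPM and fell by 1.06 (SE 0.06, edgeR adjusted p = 3.07e-10). MRPL1 had 31.5, 28.96 and 28.7 CPM with DMSO, 13.0, 15.5 and 15.1 CPM with ERKi and 14.98, 15.7 and 12.2 CPM with the combination. It fell by 1.05 (SE 0.10, edgeR adjusted p = 6.84e-08), and the ERKi and combination libraries overlap. MRPL13 fell by 1.03, from 84.2, 76.4 and 77.9 CPM to 38.0, 39.5 and 39.2 CPM. MRPL52 fell by 0.83, MRPL3 by 0.82, MRPL35 by 0.79, MRPL47 by 0.78, MRPL39 by 0.75, MRPS15 by 0.72 and MRPL42 by 0.69.

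The 2 members called higher against DMSO were MRPL34 and MRPS21. MRPL34 had 14.4, 10.03 and 11.3 CPM with DMSO and 15.2, 15.9 and 15.3 CPM with the combination, a log2 fold change of 0.38 (SE 0.12, edgeR adjusted p = 0.0109). That call was lost without DMSO replicate 2 (adjusted p = 0.0686). MRPL34 shares 13.2% of its exon bases with ABHD8 on the opposite strand, whose log2 fold change with the combination was 2.25. MRPS21 had 67.6, 58.3 and 57.7 CPM with DMSO and 65.7, 79.5 and 66.3 CPM with the combination, with overlapping groups. Its log2 fold change of 0.20 was no longer called without DMSO replicate 2 (adjusted p = 0.0927), DMSO replicate 3 (0.107) or combination replicate 2 (0.205).

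Added to venetoclax, ERKi lowered the members as well. Against venetoclax alone 56 of 77 fell and 2 rose with the combination, where 34.2% of all tested genes were called lower and 32.1% higher, and the median log2 fold change was -0.41. By subunit 36 of 49 large and 20 of 28 small subunit genes fell. The medians were -0.41 and -0.43, while the mean of the large subunit was the lower one, by a difference of -0.06. The lowest were MRPL13 (-1.16), MRPL1 (-1.13), MRPL52 (-1.09), MRPL17 (-1.01) and MRPL47 (-0.91). MRPL52 had 36.5, 37.6 and 37.2 CPM with venetoclax and 17.1, 18.3 and 17.0 CPM with the combination. The 2 called higher were again MRPL34 (0.35) and MRPS21 (0.19). Neither call was kept without venetoclax replicate 3 (adjusted p = 0.107 and 0.086) or without combination replicate 2 (0.0543 and 0.272), and that of MRPS21 was also lost without venetoclax replicate 1 (0.0648) or replicate 2 (0.087).

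The effect of ERKi without and with venetoclax can be compared gene by gene, since these comparisons share no library. Over the 77 members the log2 fold changes had a Pearson's r of 0.60 and a Spearman's rho of 0.60, and over all 15173 tested genes 0.74 and 0.76. Within the large subunit (49 genes) the values were 0.70 and 0.74, and within the small subunit (28 genes) 0.39 and 0.26. Called lower in both were 54 of 77 members, called higher in both 0, and called in opposite ways 0. Of all 15173 tested genes 3916 were called lower in both, 3578 higher in both and 524 in opposite ways. For 58 of 77 members the log2 fold change of ERKi was higher with venetoclax present than without, against 7672 of 15173 tested genes. Genes of 1 library share its depth and composition, so these are descriptions.

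**Figure D4:**
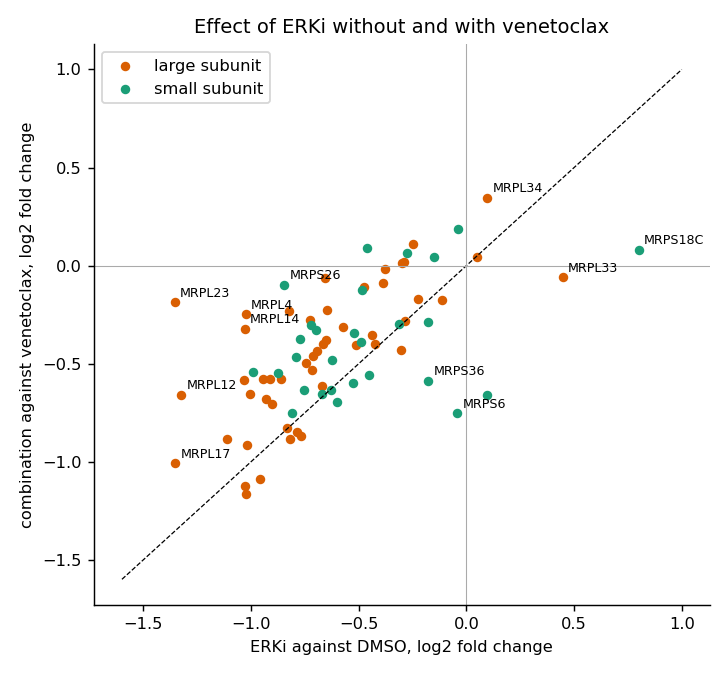
Log2 fold change of ERKi against DMSO (x) and of the combination against venetoclax (y) for 49 large subunit (orange) and 28 small subunit (green) members; the dashed line marks equal effects. Most points lie above the line in the lower left, with MRPL23, MRPL4, MRPL14 and MRPS26 far above it and MRPS6 and MRPS36 below.

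Set against ERKi alone, the combination had higher levels of most members. The share called higher was larger in the large than in the small subunit. Of 77 members 47 were higher and 3 lower, where 26.5% of all tested genes were called higher and 24.3% lower, and the median log2 fold change was 0.25. By subunit 34 of 49 large and 13 of 28 small subunit genes were higher, and by place in the ribosome 34 of 51 and 13 of 25. The counts of calls depend on the scaling. With library totals in place of TMM, 31 members were higher and 8 lower, of which 8 and 5 were of the small subunit. The median of all tested genes then moved from 0.00 to -0.13, and that of the members from 0.25 to 0.13. Of all tested genes 2763 were then called higher and 5181 lower. The ERKi libraries had TMM factors of 1.05 to 1.06, against 0.96 or more but under 1 for the others.

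MRPL23 differed most between the combination and ERKi alone. It had 17.2, 24.6 and 16.8 CPM with the combination against 8.72, 9.28 and 7.96 CPM with ERKi, a log2 fold change of 1.17 (SE 0.18, edgeR adjusted p = 4.81e-05). Its libraries spread widely, with 29.4, 19.5 and 17.6 CPM under venetoclax. MRPL4 had 33.4, 32.2 and 33.3 CPM with ERKi and 54.4, 55.5 and 54.3 CPM with the combination, a log2 fold change of 0.73. MRPL12 had 56.2, 59.4 and 55.9 CPM with the combination, above all ERKi and below all DMSO libraries, with a log2 fold change of 0.68 (SE 0.08, edgeR adjusted p = 3.7e-06). Among the others named by the same rule the log2 fold changes were 0.74 for MRPS26, 0.68 for MRPL14, 0.64 for MRPL27, 0.54 for MRPL38, 0.53 for MRPL24, 0.48 for MRPS7 and 0.45 for MRPL54.

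MRPS6, MRPL33 and MRPS36 were lower with the combination than with ERKi. MRPS6, a small subunit protein of bacterial descent (chromosome 21, 34073578 to 34143030, plus strand), had 16.8, 19.4 and 16.8 CPM with DMSO, 20.2, 20.7 and 19.4 CPM with venetoclax, 17.8, 16.9 and 16.8 CPM with ERKi and 11.5, 11.7 and 12.5 CPM with the combination. The combination libraries lay below all others. The log2 fold change against ERKi was -0.52 (SE 0.08, edgeR adjusted p = 5.7e-05). Its locus overlaps SLC5A3, a myo-inositol transporter gene on the same strand that shares 6.35% of the MRPS6 exon bases and had raw counts of 909, 943 and 994 with ERKi and 440, 372 and 402 with the combination, a log2 fold change of -1.07. MRPS36 had 16.9, 18.2 and 17.1 CPM with ERKi and 13.4, 14.0 and 14.2 CPM with the combination, a log2 fold change of -0.33 (SE 0.08, edgeR adjusted p = 0.00368), and MRPL33 had a log2 fold change of -0.42.

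The interaction is the effect of ERKi on top of venetoclax minus its effect alone. It was called positive for 32 and negative for 3 of 77 members, where 21.3% of all tested genes were called positive and 18% negative. Large subunit genes gave 23 positive and 1 negative call, and small subunit genes 9 and 2. With library totals only the counts were 16 and 8 for the members (12 and 4 in the large, 4 and 4 in the small subunit), with the median of all tested genes at -0.1. Of all 15173 tested genes 2334 were then called positive and 3765 negative. The 16 of 77 positive calls thus lie near the background under that scaling, and the 8 of 77 negative calls lie below it. The median of the members was then 0.12. With TMM the medians were 0.23 for the members and 0.01 for all tested genes. The highest values were MRPL23 at 1.17 (SE 0.24, edgeR adjusted p = 0.00127), MRPL4 at 0.78, MRPS26 at 0.75, MRPL14 at 0.71 and MRPL12 at 0.67. The members called negative were MRPS6 at -0.71 (SE 0.11, edgeR adjusted p = 0.000146), MRPL33 at -0.50 and MRPS36 at -0.41. Without ERKi replicate 1 the positive calls dropped to 21, the lowest number when any library was left out.

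Other parts of the mitochondrial translation system are given by the same test. With ERKi 35.2% of all tested genes were called lower and 34.5% higher. All 5 mitoribosome subunits with other names fell with ERKi (median -0.55), among them DAP3, the GTP-binding protein of the small subunit (-0.65), GADD45GIP1 of the large subunit (-0.89) and PTCD3 of the small subunit (-0.45). Of 26 assembly factors 19 fell and 2 rose (median -0.57), with C1QBP, a matrix protein, at -1.44, DHX30, an RNA helicase, at -1.02 and MTERF3, needed for large subunit assembly, at -0.87. Of 16 translation factors 10 fell and 2 rose (median -0.47), with the elongation factors TSFM at -0.87 and GFM1 at -0.86, and LRPPRC, which stabilises mitochondrial mRNAs, at -0.84. Of 17 mitochondrial aminoacyl-tRNA synthetases 13 fell and 0 rose (median -0.50), with LARS2 at -1.05 and EARS2 at -1.02. With the combination 3, 16, 9 and 10 genes of these 4 lists fell and 0, 3, 2 and 2 rose against DMSO. Of all tested genes 33.4% were called lower and 30.4% higher in that comparison.

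The mRNAs of the mitochondrial genome went the other way from most nuclear mRNAs for the proteins of its ribosome. With ERKi 13 of 13 mitochondrially encoded mRNAs rose (median 0.57), among them ND3 at 1.16, ND6 at 0.87 and COX1 at 0.70. With the combination 13 of 13 rose against DMSO as well (median 1.02). The libraries are of poly(A) RNA and the strand setting of the counting is not given. How well these mRNAs were captured, and from which strand their reads came, was not tested. Of 75 nuclear genes of the respiratory chain, which work together with those products, 57 fell and 3 rose with ERKi (median -0.43), with NDUFS5 at -1.28, NDUFAB1 at -1.13 and NDUFA9 at -0.97. Of 79 cytosolic ribosomal protein genes 48 rose and 6 fell (median 0.18), with RPS27 at 0.94, RPL37 at 0.70 and RPS26 at -1.40. With the combination 65 of the 79 rose and 1 fell against DMSO (median 0.38). Of all tested genes 34.5% were called higher and 35.2% lower with ERKi, and 30.4% and 33.4% with the combination.

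**Figure D5:**
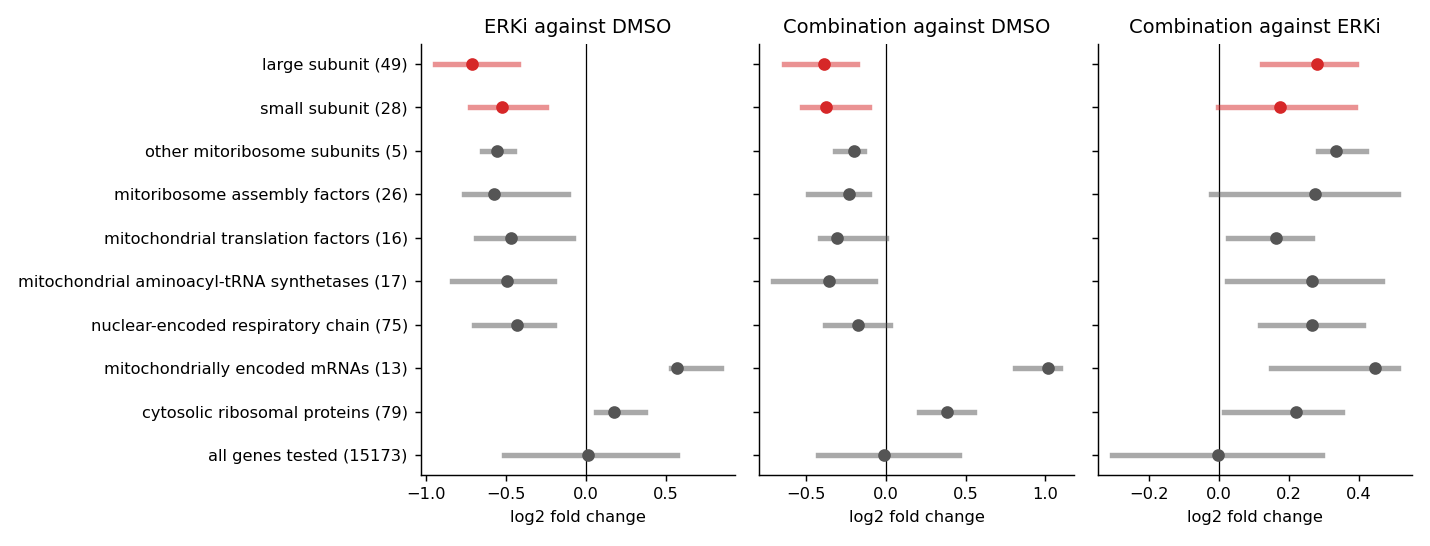
Median (point) and middle range from the 25th to the 75th percentile (bar) of log2 fold changes for both subunits (red), other gene lists and all genes tested (grey), with the number of genes in brackets. The medians of both subunits lie below 0 against DMSO and above 0 when the combination is set against ERKi, whereas those of mitochondrially encoded mRNAs and cytosolic ribosomal protein genes lie above 0 in all 3 panels.

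Compared with ERKi alone, the combination had higher levels of 5 of 5 other mitoribosome subunits, 14 of 26 assembly factors (5 lower), 8 of 16 translation factors (0 lower), 9 of 17 synthetases (1 lower) and 49 of 75 respiratory chain genes (4 lower). Of all tested genes 26.5% were called higher and 24.3% lower. With library totals only the counts were 3 higher and 0 lower for the other mitoribosome subunits, 12 and 5 for assembly factors, 4 and 2 for translation factors, 7 and 2 for synthetases and 37 and 10 for respiratory chain genes. Of all 15173 tested genes 2763 were then called higher and 5181 lower. The 4 of 16 translation factors called higher thus lie near the background, and the 2 called lower lie below it. For cytosolic ribosomal protein genes 47 were higher and 10 lower, and 34 and 17 with library totals only. TUFM, the elongation factor that brings tRNA to the mitoribosome, had a log2 fold change of 0.56 and DHX30 of 0.53.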

How the data were processed

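The authors deposited raw read counts per gene symbol for poly(A) RNA sequenced as paired ends. HISAT2, HTSeq, DESeq2 and hg38 are named, per the submitters' processing notes. For these tools, versions and strand setting were not given in the sources used here, nor the annotation. The 12 libraries were grouped by their labels. After filterByExpr (at least 10 counts, total of 15), edgeR 4.0.16 (R 4.3.3; TMM scaling, 8 residual degrees of freedom) fitted all groups together, and quasi-likelihood p-values were adjusted by Benjamini-Hochberg over 15173 genes; a call is an adjusted p under 0.05. The prior count was 0.125.

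The members and lists were chosen with earlier results of these data known. Genes named were the called members of mean CPM 5 or more with the 10 lowest and 10 highest log2 fold changes (5 each for venetoclax against DMSO, the combination against venetoclax and the interaction), 6 fixed genes and up to 3 called genes per other list (1 gene that met the rule is not reported here); MRPS2, MRPS7, MRPS12, MRPS15, MRPS26, MRPS27, MRPS35, MRPL10, MRPL11, MRPL15, MRPL22, MRPL40 and MRPL45 with ERKi and the motif examples were picked after their values were seen. On simulated counts the pipeline recovered 86.6% of 1.5-fold and 100% of 2-fold changes for ERKi against DMSO (14352 genes, 8 false calls), and 79.1% and 88.1% for the interaction (14346 genes, 4 false calls). Few genes were changed there, 67 at each of these folds, all above 5 CPM in DMSO and in random directions. All unchanged genes kept their DMSO means. Recovery for members of low counts, or where many genes change as with ERKi, was not tested. Alternatives were RLE factors, library totals, TMM without mitochondrial and ribosomal protein genes, DESeq2 1.42.0, limma-voom (limma 3.58.1), other filters, a replicate block, separate fits and each library left out. The restriction to members with a mean of 100 counts or more was added after seeing the data. Positions and promoter sequences are from RefSeq (GRCh38.p14); 76 members matched by symbol and MRPS36 by synonym.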

Additional observations from a re-analysis of the deposited data

Results flagged for a closer look

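The effect of ERKi was called different with venetoclax present for 35 of 77 members, 32 higher and 3 lower, by the interaction term of the edgeR model. Of all tested genes 21.3% were called higher and 18% lower in this term. With library totals the members' counts were 16 and 8. The 5 highest called members of mean CPM 5 or more and the 3 called lower are named here. The effect of ERKi was higher with venetoclax for MRPL23 (1.17 on the log2 scale), MRPL4 (0.78), MRPS26 (0.75), MRPL14 (0.71) and MRPL12 (0.67), and lower for MRPS6 (-0.71), MRPL33 (-0.50) and MRPS36 (-0.41). MRPL23 is also the member with the widest spread between replicates among these, with raw counts of 590, 385 and 357 under venetoclax and 340, 454 and 321 under the combination. At the MRPL12 locus the neighbouring carrier gene SLC25A10 had an interaction of 0.94 and a log2 fold change with ERKi of -1.48. SLC5A3, which overlaps MRPS6, had an interaction of -1.20. Whether reads of these neighbours enter the member counts was not tested.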

How the results depend on the processing

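With library totals in place of TMM, 31 members were higher and 8 lower in the combination against ERKi, and the interaction gave 16 and 8 (2763 and 5181, and 2334 and 3765, of all tested genes). In the combination against ERKi the median moved from 0.25 to 0.13 for the members and from -0.003 to -0.13 for all tested genes. Why the ERKi libraries differ in their scaling was not tested. The large minus small difference in mean log2 fold change was -0.04, -0.21, -0.10, -0.06, 0.11 and 0.15 for venetoclax, ERKi and the combination against DMSO, the combination against venetoclax and against ERKi, and the interaction; for the combination against venetoclax the medians ran the other way. Over members with 100 mean counts or more it was 0.0078 with venetoclax, a reversed sign, -0.14 with ERKi (1 member higher), -0.030 with the combination and 0.10 for the interaction. By place in the ribosome it was 0.080 for the combination against ERKi and 0.12 for the interaction, and with a filter of CPM above 1 in 3 libraries 0.12 for the interaction. Leaving out 1 library gave, in that order, 0 lower and 0 higher, 64 to 67 lower and 1 to 2 higher, 51 to 56 and 0 to 2, and 52 to 57 and 0 to 2, then 38 to 49 higher and 3 lower, and 21 to 35 and 3 to 4. The differences then ran from -0.06 to -0.01, -0.23 to -0.19, -0.12 to -0.08, -0.08 to -0.04, 0.09 to 0.13 and 0.13 to 0.17.

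Replicate numbers did not pair the libraries: deviations of same-numbered libraries correlated at -0.08 to 0.07, and 0 of 18 pairs passed 0.1. With the replicate block, 66 members fell and 2 rose with ERKi, and the interaction had 27 positive and 3 negative calls. Signs changed for genes near 0 that were not called. With library totals MRPL12 was at -0.00026 with venetoclax, and with no filter MRPS30 was at 0.0077 in the combination against ERKi. Leaving out 1 library, values with venetoclax ran from -0.056 to 0.13 for MRPL12, -0.18 to 0.078 for MRPL58, -0.097 to 0.16 for MRPS18A and -0.16 to 0.49 for MRPS18B. In the combination against DMSO, MRPS18B ran from -0.077 to 0.58 and MRPL33 from -0.0032 to 0.051, with -0.0089 for MRPL33 under library totals. Against venetoclax the ranges were -0.12 to 0.20 for MRPS18B and -0.052 to 0.23 for MRPS18C. Members under 100 counts rest on few reads, and why their counts are low was not tested.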
